A study of Caenorhabditis elegans with 2 samples.

Results

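Of the 17005 nuclear peaks in the pooled MEL-28 ChIP-seq list, 1899 (11.2%, exact 95% interval 10.7 to 11.7%) had their summit at the 3′ end of a protein-coding gene. These 1899 peaks are described here. The pooled list is relaxed: it was deposited as peaks and background together, to be compared between replicates, so its weaker entries can be background. A summit counted when it lay in an annotated 3′ UTR or up to 500 bp past the 3′ end of the gene. It also had to lie outside the window from 1000 bp upstream to 500 bp downstream of every protein-coding 5′ end, and more than 500 bp from every tRNA, snoRNA, snRNA, miRNA, piRNA or ncRNA gene. The 3′ UTR of any annotated transcript counted, so some summits lay well inside the gene. The choice used positions and not signal. The 1899 summits came from 1898 distinct intervals with a median width of 430 bp, and they were assigned to 1724 genes.

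MEL-28 is the worm relative of ELYS, a protein that binds chromatin, seeds the rebuilding of nuclear pores after mitosis and is also found at kinetochores. The animals were whole young adults of strain OP646 (unc-119(tm4063) III; wgIs646), a pool of males and females collected 64 h after synchronisation as starved first-stage larvae. Both libraries came from the same line, whose integrated transgene wgIs646 carries mel-28 fused at its C-terminus to GFP and FLAG, and an antibody to GFP precipitated the chromatin. There was 1 group, with 2 biological replicates, and no second condition. All values therefore describe this line, and a whole animal mixes germline, gut, muscle, neurons and other tissues. Read counts were not analysed here and the depth of each library is unknown, so intervals cover the counting of peaks and genes only.

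The 3′ end of a gene is where the nascent RNA is cleaved and polyadenylated, usually downstream of a signal with the letters AATAAA in the DNA, and where RNA polymerase II then terminates. In the compact genome of this worm, neighbouring genes on opposite strands often end tail to tail, so that 1 short region serves as the end of both. Such pairs are called convergent. In tandem pairs the next gene lies on the same strand. Because promoter windows were left out, the 3′ regions that remained were mostly those of convergent genes and of genes with a distant downstream neighbour.

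Sequences around some of the strongest summits are given as examples. Each line gives the 30 bases around a summit that lay outside annotated UTRs, 5′ to 3′ on the strand of the gene (ce11 coordinates, WBcel235 sequence from RefSeq). Capitals mark the letters AATAAA, which were searched on both strands. The lines were picked from the strongest such sites for a range of composition, so they do not measure how unlike the sites were.
zip-2 (chrIII:835914-835943, plus strand): ccaatgtgcaccataagcgatttggccctg
C06B3.6 (chrV:13907805-13907834, minus strand): tgagatgcatgcccaattgtgttcagagct
T27A8.7 (chrX:16056588-16056617, plus strand): cagatgccccttcccatatctgtgaccgcc
F25E2.2 (chrX:806650-806679, minus strand): ctgcgcgataatcgcacagggagAATAAAa
rei-1 (chrIII:4096701-4096730, minus strand): attgttgaaaaattgtaattttttgaaatt
The T27A8.7 summit was 60% G and C over these 30 bases and the rei-1 summit 13.3%. The letters AATAAA occurred at the F25E2.2 summit, 327 bp past the end of that gene.

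The peak at the top was on chromosome III (835807 to 836067), with a signal of 244 in the pooled list, 110 in replicate 1 and 137 in replicate 2. Its summit lay 114 bp past the 3′ end of zip-2, which encodes a bZIP transcription factor, and inside a coding exon of the convergent gene dos-3, which overlaps the end of zip-2. A second summit nearby (836027 to 836148, signal 108) lay at the same 2 genes. Both summits had 1 counterpart in replicate 1 and separate ones in replicate 2, where the second had a signal of 55.5. The next peak (chromosome V, 13907635 to 13908088) had signals of 216 pooled, 84.8 in replicate 1 and 121 in replicate 2. It lay 311 bp past the end of C06B3.6 and in a coding exon of the convergent gene stdh-1. At both genes the summit was at the end of 1 gene and inside its neighbour.

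Of the other named genes among the 20 strongest sites, several have well-known products. The peak at ubq-1, the polyubiquitin gene (chromosome III, 5943714 to 5944143), had a pooled signal of 138, with 62.0 in replicate 1 and 73.2 in replicate 2. The peak at cmd-1, the calmodulin gene (chromosome V, 1158265 to 1158694), had signals of 121 pooled, 47 in replicate 1 and 73.8 in replicate 2. That at rpn-8, a subunit of the proteasome lid (chromosome I, 4177267 to 4177696), had 120 pooled and 65.6 in replicate 2, but 30.8 in replicate 1, where it ranked 1712. The ubq-1 and rpn-8 summits lay in coding exons of the convergent genes F25B5.5 and R12E2.13. The cmd-1 summit lay inside the convergent gene T21H3.5. Summits past the ends of xbp-1, a transcription factor of the unfolded protein response (chromosome III, 4195364 to 4195793), and oaz-1, the ornithine decarboxylase antizyme gene (chromosome I, 6094478 to 6094709), had pooled signals of 118 and 117.

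Other strong sites lay where 2 convergent genes end. The peak assigned to tir-1 (chromosome III, 3869131 to 3869560, pooled signal 150) lay in a coding exon of the convergent ribosomal protein gene rpl-3. A summit 200 bp away, in the 3′ UTR of rpl-3 (signal 79.4), had the same counterparts as that of tir-1 in both replicates, with signals of 67.2 and 83.3. That assigned to nra-1 (chromosome IV, 17281214 to 17281643, signal 114) lay 26 bp past its end and faced hsp-1, which encodes a constitutive heat shock protein of the HSP70 family. The summit at smut-1 (chromosome V, 6098714 to 6099143, signal 106) lay in its 3′ UTR and faced the calreticulin gene crt-1. At ekl-7 (chromosome I, 2318030 to 2318459, signal 103) the convergent neighbour was mcm-4, a subunit of the replicative helicase. The peak on chromosome III from 9462780 to 9463209 (signal 117) lay in the 3′ UTRs of both spk-1, an SR protein kinase, and B0464.6. These positions do not say which gene of a pair a signal belongs to.

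Further peaks among the 20 strongest lay at F19H6.6 (chromosome X, signal 167), T27A8.7 (X, 157), ugt-45 (IV, 142), F25E2.2 (X, 141), T28B8.1 (I, 140), ZK673.2 (II, 136), F40E3.3 (I, 131), rei-1 (III, 124) and nlp-40 (I, 118.7). The remaining one lay in the 3′ UTR of rsp-3 (III, 12686571 to 12687000, signal 114), which encodes an SR splicing factor. The gene ugt-45 encodes a predicted glucuronosyltransferase, and nlp-40 a neuropeptide of the gut. The replicates ordered these peaks differently. Signal at nlp-40 was 72.4 in replicate 1 (rank 91) and 45.9 in replicate 2 (rank 934), whereas that at rei-1 was 38.2 in replicate 1 (rank 778) and 90.4 in replicate 2 (rank 57).

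**Figure D1:**
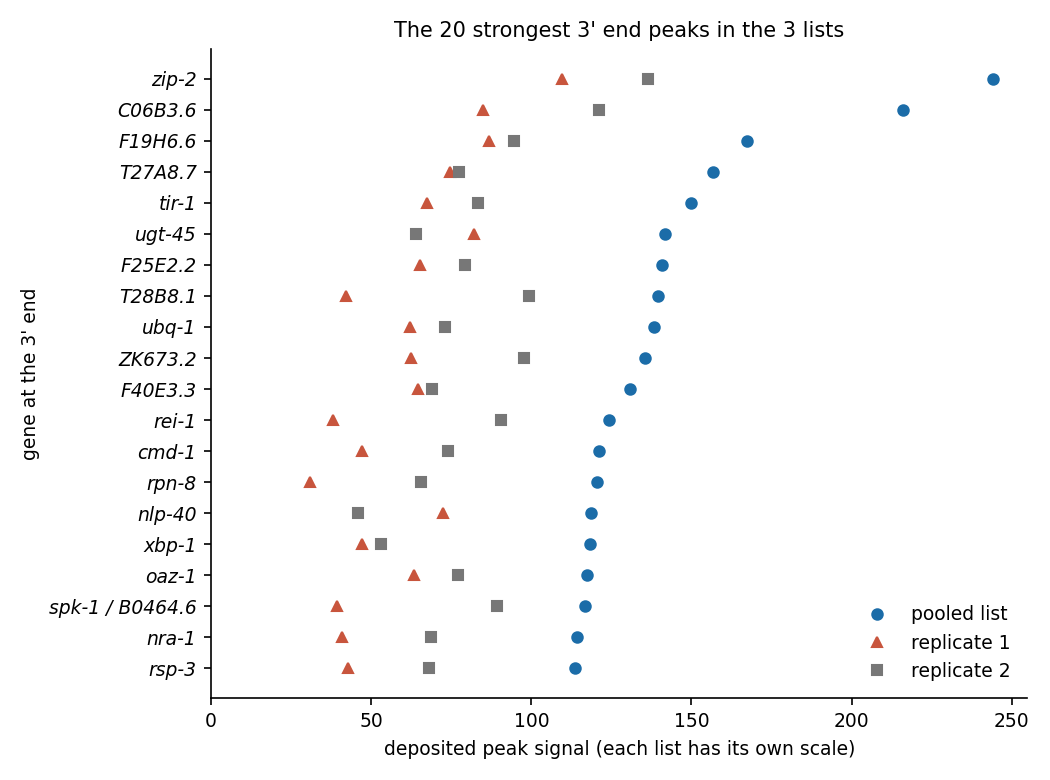
Deposited signal (horizontal axis, arbitrary units, a separate scale for each list) of the 20 strongest 3′ end peaks, named by gene, in the pooled list (circles), replicate 1 (triangles) and replicate 2 (squares). Pooled values run from 114 at rsp-3 to 244 at zip-2, and the order of the genes differs between the replicates.

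Signal over all 1899 peaks ran from 29.3 to 244, with a median of 39.2 (95% interval 38.5 to 39.9) and a middle range of 33.4 to 49.5. The other 15106 nuclear peaks had a median of 37.6 (37.4 to 37.8), so the typical values were close. Signals above 60 were found for 13.0% of the 3′ end peaks and 9.64% of the others. Along the ranking of all nuclear peaks by signal, cut into 10 equal groups, 3′ end peaks made up 14.5% of the strongest group, 13.5% of the next, and between 9.18% and 10.8% of each of the 6 weakest. Their median was close to those of 5705 promoter peaks (39.1) and above those of 2240 coding exon peaks (36.2) and 1910 intergenic peaks (36.6). No test was made of these differences, since peaks of 1 library are not replicates.

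**Figure D2:**
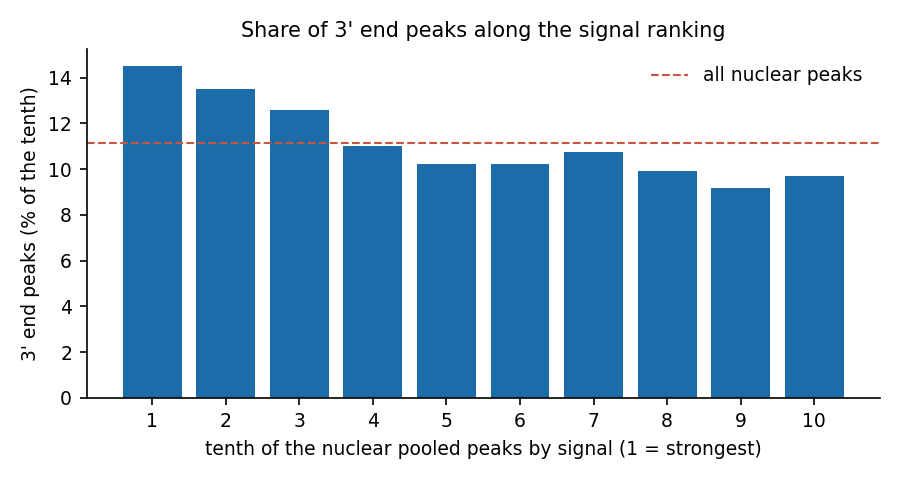
Share of 3′ end peaks (%, vertical axis) in each of 10 equal groups of the 17005 nuclear pooled peaks ordered by signal (horizontal axis, 1 is the strongest), with the share over all of them, 11.2%, as a dashed line. The share is 14.5% in the strongest group and 9.70% in the weakest.

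The deposited list of reproducible peaks, made from both replicates by their irreproducible discovery rate (IDR), held 36 of the 1899 (1.90%, exact interval 1.33 to 2.61%). Over all nuclear peaks the share was 2.17%, so the count was near the background. A peak counted when an overlapping reproducible peak had the same summit. When any overlap counted, the share was 3.00%, and 2.78% for the other peaks. With the same summit required, the share was 4.95% of peaks near a small noncoding gene, 3.21% of promoter peaks and 1.26% of intergenic peaks. It was 0.716% of peaks in introns or other genic sequence and 0.357% of coding exon peaks. The 36 had pooled signals from 93.1 to 244 with a median of 115.5, and the strongest 3′ end peak outside the list, at ppm-2, had 92.3. Among 3′ end peaks, being in the list thus equalled a cut on pooled signal. Of the 36, 35 had a counterpart in both replicates' own lists, and 15 ranked among the strongest 389 nuclear peaks of both. The exception was 1 of the 2 summits at T28B11.1 (99.5 pooled), which had no counterpart in replicate 1 and a signal of 76.1 in replicate 2.

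The genes at the 36 beyond those already named included pck-2 (signal 113), which encodes a phosphoenolpyruvate carboxykinase, nhr-66 (111), a nuclear hormone receptor gene, and vit-2 (102), which encodes a yolk protein made in the gut of adult hermaphrodites. The mak-1 peak (96.3) and the cts-1 peak (93.1), at the citrate synthase gene, were near the bottom of the list. Also in it were F09F7.6 (113), Y82E9BR.3 (109), T28B11.1 (105), Y94H6A.10 (104.4), bed-2 (103), Y54G11A.2 (100.8) and R08D7.5 (93.8). The R08D7.5 signal rested on replicate 2, with 75.9 there and 18.5 in replicate 1, where it ranked 10728. Of the 36 summits, 14 lay in the body of another protein-coding gene. Among them, that of pck-2 lay in a coding exon of suro-1 and that of cts-1 in one of best-18. The vit-2 summit lay inside C42D8.9.

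Across the whole set, 801 of the 1899 peaks (42.2%, exact interval 39.9 to 44.4%) overlapped a peak of each replicate's list by at least 50% of the shorter interval. Over all nuclear peaks this share was 37.7%, among the other 15106 it was 37.1%, and among promoter peaks 42.4%. Requiring an overlap of 80% left 25.9% of the 3′ end peaks and 23.5% of the others. At 50%, a further 451 (23.7%) had a counterpart in replicate 1 alone, 507 (26.7%) in replicate 2 alone and 140 (7.37%) in neither. Over all nuclear peaks these shares were 26.3%, 27.5% and 8.54%. For the 801, the rank correlation of signal between the replicates was 0.32 (Spearman), and that of log2 signal was 0.42 (Pearson). For the 5605 other peaks in both lists these were 0.35 and 0.52. These describe peaks that share 2 libraries and are not replicates, and 114 of the 801 shared both counterparts with another 3′ end peak.

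Counted per base, summits were denser at 3′ ends than elsewhere. The bases that met the rule came to 7005391, or 6.99% of the nuclear genome, and held 271 summits per Mb (95% Poisson interval 259 to 284). The rest of the nuclear genome held 162 per Mb, a ratio of 1.67. The density was 274 per Mb in the 640 summits' 3′ UTR bases and 270 per Mb in the bases past the end, where the other 1259 lay. Median signals were 38.9 in 3′ UTRs and 39.4 past the end. Both kinds of base thus had like density and signal.

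The position of the summits along the gene was resolved by taking every base outside promoter and noncoding windows and its distance to the nearest 3′ end. Density was 119.4 per Mb between 1000 and 900 bp before the end and 246 per Mb in the last 100 bp of the gene. It was 269 per Mb in the first 100 bp past the end, 365 per Mb (329 to 405) between 100 and 200 bp past it, and 200.2 per Mb between 400 and 500 bp. Between 900 and 1000 bp past the end it was 122 per Mb, close to the value inside the gene. Median signal was 40.8 in the first 200 bp past the end and 37.02 between 400 and 500 bp, and from there to 1500 bp it lay between 35.6 and 37.7. At the edge of the rule, 182 peaks in the last 100 bp of the window of their own gene had a median signal of 37.3, and 170 in the 100 bp just outside it had 36.4.

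**Figure D3:**
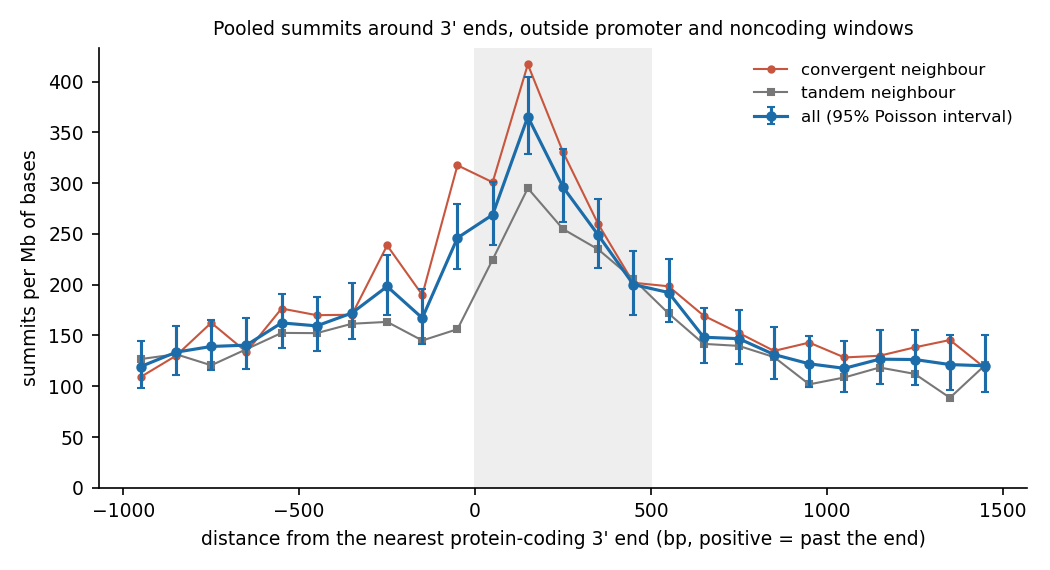
Pooled summits per Mb (vertical axis) in steps of 100 bp by distance from the nearest protein-coding 3′ end (horizontal axis, positive values past the end), for all genes with 95% Poisson intervals and for convergent and tandem genes, and shading for the 500 bp past the end. The highest point is 365 per Mb between 100 and 200 bp past the end, where convergent genes have 417 and tandem genes 295.

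The next gene along the chromosome went with this density. Windows of convergent genes held 1220 of the 1899 summits (64.2%, exact interval 62.0 to 66.4%) and 57.3% of the eligible bases, a density of 304 per Mb. Windows of tandem genes held 626 summits at 229 per Mb, and those of genes nested in another gene 59 at 216 per Mb. Some windows belong to genes of both kinds, so the 3 counts overlap. Among the reproducible peaks 31 lay in windows of convergent genes, 2.54% of the peaks there, and 5 in those of tandem genes, 0.799% of theirs. A peak was present at 1397 of 8135 eligible convergent genes (17.2%) and at 549 of 5245 tandem genes (10.5%).

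Among convergent genes, density was lower where the space between the 2 ends was wider. Where the annotated genes overlapped it was 385 per Mb (612 summits), with gaps under 250 bp 324, and with gaps from 250 to under 500 bp 282. It was 263 per Mb with gaps from 500 to under 1000 bp, 199.3 from 1000 to under 2000 bp and 184 at 2000 bp or more. The values for gaps of 1000 bp or more were below the 229 per Mb of tandem genes. Overlapping ends also place a summit inside the neighbour. Of all 1899 summits, 569 lay in the body of another protein-coding gene. In a separate count, 384 (20.2% of all) lay in a coding exon of any protein-coding gene, the summit's own gene included. When coding exons were left out, which was decided once the values were known, the density was 261 per Mb, and convergent windows held 57.6% of summits and 51.5% of bases.

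**Figure D4:**
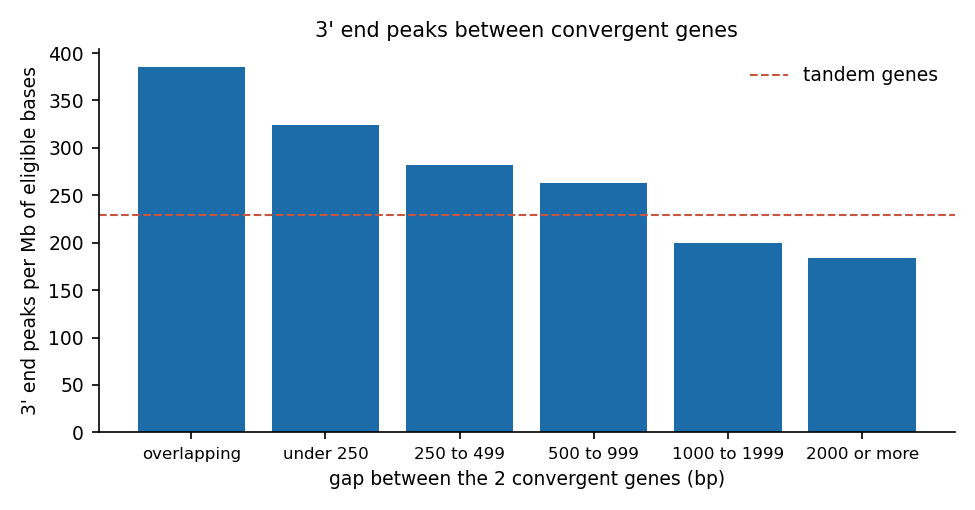
Density of 3′ end peaks (per Mb of eligible bases, vertical axis) at convergent genes by the gap between the 2 genes (horizontal axis, bp), with the density at tandem genes, 229 per Mb, as a dashed line. Bars run from 385 per Mb for overlapping genes to 184 per Mb for gaps of 2000 bp or more.

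The 5′ ends of the same genes were examined next. A gene was eligible when at least 1 base of its 3′ UTR or of the 500 bp past it met the rule, which was so for 13956 of 19973 nuclear protein-coding genes, and 2001 of these (14.3%) held a peak. A pooled summit lay in the 5′ window of 922 of the 2001 (46.1%, exact interval 43.9 to 48.3%) and of 2893 of the 11955 eligible genes without a 3′ peak (24.2%, 23.4 to 25%). The first set had longer eligible windows, with a median of 684 bp against 555 bp, and longer genes, with a median of 2902 bp against 2047 bp. Among genes with 500 to 749 eligible bases the shares were 42.8% and 22%, and with 750 or more 51.2% and 30.7%. A window can hold the 5′ end of a neighbour, so a 5′ peak may be shared between genes.

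At 5 of the 42 genes with a reproducible peak in the 3′ window, a reproducible peak also stood in the 5′ window. Such a 5′ peak stood at 42 of the 2001 genes with any 3′ peak (2.10%) and at 105 of the 11955 without (0.878%). At 4 of the 5 genes the 3′ peak was assigned to the gene itself. These were ubq-1 (138 at the 3′ end, 95.3 at the 5′ end), T28B8.1 (140 and 102), Y54G11A.2 (100.8 and 177) and oaz-1 (117 and 110). The 3′ summit of ubq-1 also lay in a coding exon of the convergent gene F25B5.5. Of the 35 genes assigned a reproducible 3′ peak, 23 had a pooled summit of any strength in the 5′ window. Over the 2001 genes with any 3′ peak that share was 46.1%. The remaining gene of the 5 was hsp-1, with 114 in its 3′ window, from the summit assigned to nra-1, and 170 in its 5′ window. The ribosomal gene rpl-3 had 79.4 in its own 3′ window and 305 in its 5′ window. These genes were picked out by their values.

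Gene lists drawn by function were then set against the 14.3% of all eligible genes. Each count of genes with a peak is given with its exact 95% interval, and with the density of summits per Mb of the list's own windows, which was 286 per Mb over all eligible genes when a summit counts for each gene whose window holds it. No set test was run. A gene counts when its window holds a summit, also where the summit is assigned to a convergent neighbour. Of the 66 gene names that stand for the strongest summits of the lists, 13 had a summit assigned to a neighbour: hsp-1 (nra-1), cct-7 (zig-11), col-99 (daf-1), hcp-6 (spd-5), snr-6 (pie-1), cox-4 (sac-2), atp-1 (T26E3.7), cpg-1 (atf-7), pat-4 (mrpl-40), unc-104 (sqv-7), srg-21 (copb-1), fbxb-76 (cbd-1) and clec-78 (hlh-30). The summit of rpl-41.2 and that of col-167 had no counterpart in either replicate. A counterpart in replicate 2 was missing for 10 names (eif-3.D, cct-7, his-24, col-99, col-110, cpsf-1, cpr-9, unc-22, str-33 and clec-78), and in replicate 1 for 7 (his-71, snr-6, rpn-5, msp-78, pat-3, flp-6 and ceh-9).

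Germline and oocyte genes had a peak at 16 of 28 (57.1%, 37.2 to 75.5%; 894 per Mb). The strongest were mex-1 (signal 85.6), which encodes an RNA-binding protein of the early embryo, cpg-1 (80.7), a chondroitin proteoglycan of the eggshell, and puf-3 (67.2), a Pumilio-family RNA-binding protein. Other genes with a peak were pie-1, pos-1, mex-5, glh-1, csr-1, prg-1, cgh-1 and car-1. Proteasome genes had a peak at 9 of 16 (56.2%, 29.9 to 80.2%; 1317 per Mb), led by rpn-8, whose peak is given above, by rpn-11 (81.5), the deubiquitinase of the lid, and by rpn-5 (58.4).

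Genes of kinetochores and chromosome segregation, the processes in which MEL-28 itself is known, had a peak at 9 of 21 (42.9%, 21.8 to 66.0%; 927 per Mb). The strongest were klp-7 (73.9), a microtubule-depolymerising kinesin, hcp-6 (73.6), a condensin subunit, and smc-3 (66.8), a cohesin subunit. The centromeric histone gene hcp-3 and the Aurora A kinase gene air-1 also had one. Nucleoporin, envelope and transport genes had a peak at 11 of 29 (37.9%, 20.7 to 57.7%; 739 per Mb), among them ima-3 (68.9), an importin alpha gene, npp-25 (63.6), a nucleoporin gene, and ran-3 (55.0), which encodes the exchange factor for Ran. The gene mel-28 (chromosome III, 4786080 to 4792391) had 0 eligible bases and 0 pooled summits inside it. Within 20 kb of it lay 2 pooled summits, 1 of them a 3′ end peak at pal-1 with signal 53.6.

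For splicing genes the count was 6 of 15 (40%, 16.3 to 67.7%), led by rsp-3, rsp-2 (68.5) and snr-6 (49.1), a core snRNP protein gene. Of the genes for 3′ end processing and termination, 5 of 13 (38.5%, 13.9 to 68.4%) had one: cpsf-1 (91.7) and pfs-2 (60.1), which encode cleavage and polyadenylation factors, fipp-1 (44.6), clpf-1 and xrn-2, which encodes the exonuclease used in termination. The pfs-2 summit (chromosome II, 14359451) lay in a coding exon of pfs-2 itself, a gene on the plus strand that runs from 14358366 to 14361684. The cpsf-1 peak (chromosome IV, 2008826 to 2009255) had a counterpart in replicate 1 (signal 31.7) and none in replicate 2. Translation factor genes had 6 of 17 (35.3%, 14.2 to 61.7%), led by eif-2alpha (53.5) and ife-3 (53.1), a cap-binding eIF4E protein gene.

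Cytosolic ribosomal protein genes had a peak at 15 of 44 (34.1%, 20.5 to 49.9%; 853 per Mb), led by rpl-3, rpl-4 (61.2) and rpl-41.2 (57.0). Mitochondrial ribosomal genes had 10 of 36 (27.8%, 14.2 to 45.2%), led by mrpl-40 (64.0), mrpl-30 (57.5) and mrpl-22 (50.2). Mitochondrial respiration genes had 7 of 24 (29.2%, 12.6 to 51.1%), led by nuo-4 (54.6), cox-4 (46.8) and atp-1 (43.9). Heat shock and chaperone genes had 12 of 38 (31.6%, 17.5 to 48.7%), among them hsp-1, cct-7 (81.8), a subunit of the cytosolic chaperonin, and dnj-29 (72.7).

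The lists of muscle, synaptic, intestine, nuclear hormone receptor and homeobox genes lay near the background. Counts were 4 of 28 for muscle (14.3%), with pat-4, an integrin-linked kinase gene that shares the mrpl-40 summit, pat-3 (45.5) and unc-22 (34.2), 4 of 29 for synaptic and neuronal genes (13.8%), with unc-104 (58.5), unc-64 (47.9) and eat-4 (42.97), and 4 of 33 for intestine (12.1%), with vit-2, asp-1 (45.2) and cpr-9 (43.2). Nuclear hormone receptor genes had 27 of 191 (14.1%), led by nhr-66, nhr-100 (52.2) and nhr-170 (51.6). Homeobox and other developmental factors had 10 of 71 (14.1%), led by pal-1, ceh-36 (38.6) and ceh-9 (35.7). The intervals of these 5 lists all held 14.3%.

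Chemoreceptor genes, a large family expressed in few sensory neurons, had a peak at 37 of 777 (4.76%, 3.37 to 6.5%; 112.1 per Mb), with srg-21 (54.2), srh-276 (48.1) and str-33 (47.9) at the top. Counts were also low for C-type lectins, 6 of 166 (3.61%, 1.34 to 7.70%), with clec-266 (67.1), clec-78 (51.0) and clec-80 (37.4), and for F-box and BATH genes, 13 of 259 (5.02%, 2.70 to 8.43%), with math-33 (73.6), bath-44 (59.8) and fbxb-76 (44.9). Neuropeptide genes had a peak at 8 (6.96%, 3.05 to 13.2%), with nlp-40, nlp-68 (51.6) and flp-6 (41.3). Collagen genes had 9 of 114 (7.89%, 3.67 to 14.5%), with col-99 (43.1), col-110 (41.3) and col-167 (40.1). Sperm genes had 1 of 33 (3.03%), which was msp-78 (41.4), a major sperm protein gene. Histone genes had 2 of 46 (4.35%), and these were his-24 (47.3), a linker histone gene, and his-71 (31.3), which encodes the replication-independent histone H3.3. Eligible windows of histone genes averaged 167 bp, against 579 bp over all eligible genes, and their density was 259.6 per Mb. Intervals lay wholly above 14.3% for germline, proteasome, kinetochore, nucleoporin, splicing, ribosomal and heat shock genes, and wholly below it for chemoreceptor, C-type lectin, F-box and BATH, and neuropeptide genes. Those of all other lists held it. The 5′ ends of the same lists showed a like split. A pooled summit lay in the 5′ window of 27.3% of all eligible genes. In the lists wholly above 14.3% at the 3′ end, this 5′ share ran from 41.4% (nucleoporin) to 84.1% (ribosomal). In those wholly below, it ran from 9.91% (chemoreceptor) to 23.5% (neuropeptide). The split is thus not particular to 3′ ends, and whether it holds apart from the 5′ peaks was not tested.

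**Figure D5:**
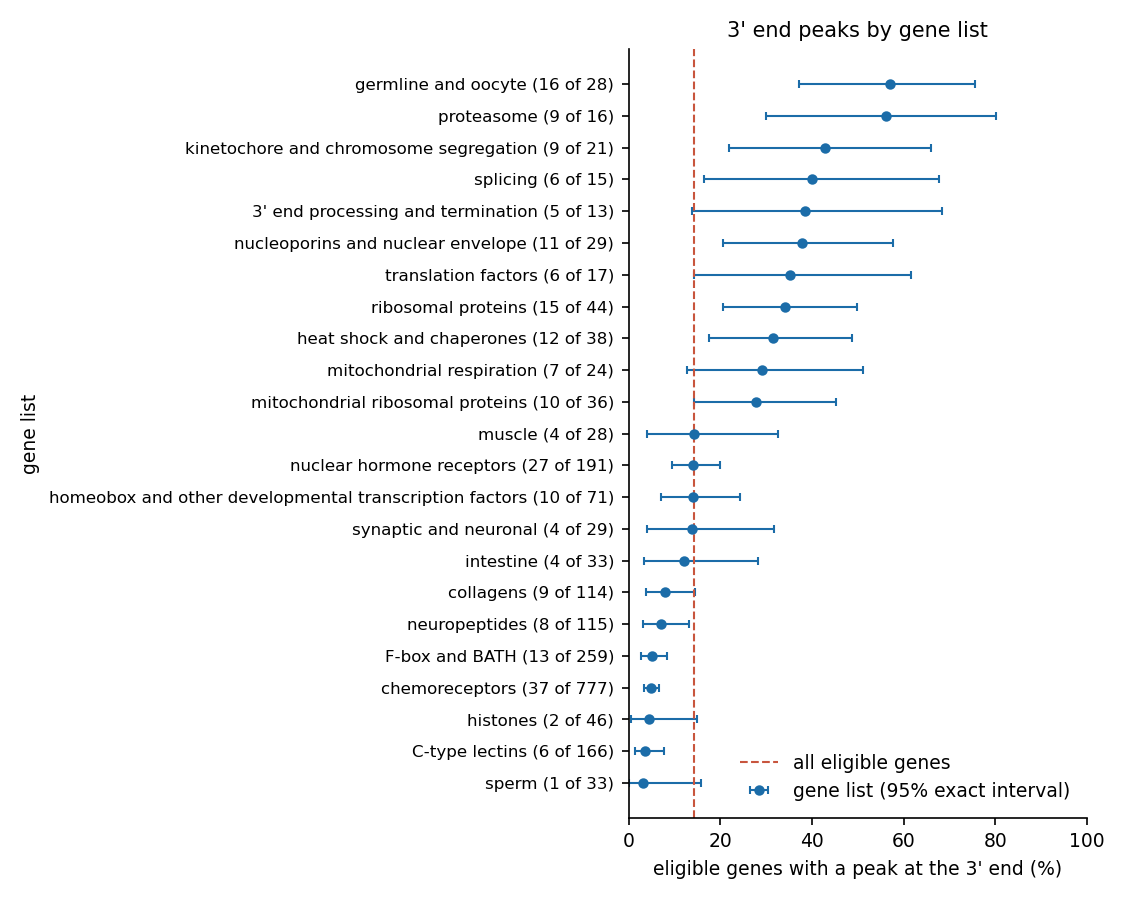
Share of eligible genes with a peak at the 3′ end (%, horizontal axis) for 23 gene lists (vertical axis, with counts), with exact 95% intervals, and the share over all eligible genes, 14.3%, as a dashed line. Germline and proteasome genes are highest, at 57.1% and 56.2%, and sperm genes and C-type lectins lowest, at 3.03% and 3.61%.

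The same lists were counted in each replicate's own list, where 15.2% (replicate 2 alone) and 17.8% (replicate 1 alone) of all eligible genes had a 3′ peak. Germline genes had a peak at 13 and 16 of 28, proteasome genes at 11 and 9 of 16, and chemoreceptor genes at 45 and 48 of 777, in replicate 2 and replicate 1. Shares that moved by more than 1.5 times from the pooled value were those of neuropeptides (13.9% in replicate 2), C-type lectins (8.43% and 11.4%), F-box and BATH genes (10.8% in replicate 1), intestine (21.2% in replicate 1), synaptic genes (24.1% in replicate 1), collagens (4.39% in replicate 2) and 3′ end processing (61.5% in replicate 2). Without summits in coding exons, 2 of 17 translation factor genes, 3 of 13 genes for 3′ end processing and 6 of 35 mitochondrial ribosomal genes had a peak, and so did 12.2% of all eligible genes.

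The chromosomes differed in density. It was 343 per Mb of eligible bases on III (95% Poisson interval 307 to 381), 326 on I (292 to 363), 303 on IV (269 to 341), 252 on II (224 to 282), 230 on V (207 to 255) and 217 on X (193 to 245). The intervals of I and III lay above those of II, V and X, and that of IV overlapped those of I, II and III. Peaks on X made up 276 of the 1899 (14.5%), and X held 18.1% of the eligible bases. Outside the 3′ windows X was not lowest, with 165 other peaks per Mb. The other peaks had 174 per Mb on I, 162 on II, 175 on III, 153 on IV and 150 on V, so I and III were the densest there too. Of the 36 reproducible 3′ peaks 13 were on III, which held 17.7% of all 1899. The 13 included both summits at zip-2, which had the same counterpart in replicate 1. No test was made of this count. With each autosome cut into 3 equal lengths, the central part had 315 per Mb, the left part 258 and the right part 271. Other peaks had the same order, with 175 per Mb in the central part, 148 in the left and 162 in the right. The strongest peaks of each chromosome were those at T28B8.1 (I), ZK673.2 (II), zip-2 (III), ugt-45 (IV), C06B3.6 (V) and F19H6.6 (X).

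With 150 bases on either side of the summit, 3′ end peaks were 35.9% G and C at the median (95% interval 35.5 to 36.2%), below the 38.5% of the other nuclear peaks. The eligible bases themselves, sampled at every 50th base, had a median of 33.9%. The median around the summits thus lay between those of the eligible bases and of the other peaks. Without summits in coding exons it was 34.9%, and the eligible bases were not measured again in that way. The median share of soft-masked bases, which mark repeats, was 30.2% around the summits, 24.9% around other peaks and 32.2% around eligible bases. The letters AATAAA on the strand of the gene occurred within 150 bases of 813 summits (42.8%, exact interval 40.6 to 45.1%) and of 44.3% of eligible bases. Within 50 bases the shares were 18.6% and 18.8%.

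On either strand, AATAAA occurred within 150 bases of 60.4% of the 3′ summits, 45.9% of other nuclear summits and 62.9% of eligible bases. The letters TTTTTTTT or AAAAAAAA occurred around 31.1%, 26.0% and 32.6% of the same sets. The letters GAGAGAGA or TCTCTCTC occurred around 3.32%, 4.97% and 2.16%, and CGCG around 27.5%, 34.2% and 21.5%. For all 4, the 3′ summits lay between the eligible bases and the other peaks. The letters were read in the reference sequence and are not evidence of a bound factor.

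Genes with more than 1 peak were few. A single 3′ peak was assigned to 1523 genes, 2 to 188 genes, 3 to 11 and 4 to unc-43, which encodes a calcium/calmodulin-dependent kinase, and F53F10.2. Among genes with 3 were daf-2, the insulin receptor gene, cnb-1, the calcineurin B gene, and ets-4, an ETS-family transcription factor gene. These were singled out by their count. The transgene marker gene unc-119 (chromosome III, 10902641 to 10908935) had 681 eligible bases and 0 of these peaks, with 1 pooled summit elsewhere in the gene.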

How the data were processed

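Peaks came from 2 anti-GFP ChIP-seq libraries of 1 strain. Per the labels they are biological replicates 1 and 2. The deposited file manifests record 1 list per replicate, called against a control that both share, 1 list from the 2 combined, and 1 reproducible list derived from the other lists. Which aligner and peak caller were used is not given in the sources used here, nor is the IDR threshold. The peak signal is the value the authors deposited, on an unstated scale, and was compared only within a list. The ce11 lists held 17025 pooled, 23790 (replicate 1), 19598 (replicate 2) and 389 reproducible peaks, and 0 ended beyond a reference chromosome. The ce10 lists and 20 mitochondrial pooled peaks were not used here.

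Summits were placed on Ensembl release 115 (WBcel235), using the gene record for 5′ and 3′ ends. The gene of a summit is the one whose 3′ UTR holds it, or else whose 3′ end is nearest upstream. A neighbour was convergent when the next gene was on the other strand. Intervals are exact binomial, Poisson or binomial order-statistic, at 95%. No p-value was computed, because the study has 1 group. Members, gene lists and naming were chosen with earlier results of these data known. Genes named are those at the 20 strongest peaks, at all reproducible peaks, the 3 strongest of each of 23 lists, the strongest per chromosome, mel-28 and unc-119, and others where stated. The further genes listed without a signal were chosen after their peaks were seen. The position rule and counts were tested on simulated data. Python 3.11.15, numpy 2.4.6, scipy 1.17.1 and pandas 2.3.3 were used.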

Additional observations from a re-analysis of the deposited data

How the results depend on the processing

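Each replicate's own list, other windows, overlaps, sequence windows and a signal cut were tried. Of 124 alternative values of 12 results, 69 moved by less than the spread between the replicate lists (or the interval of the main value) and 55 by more. For median signal that spread mixes the lists' separate scales, and for density their unlike lengths. It is no measure of replicate variation for these results. Of 93 alternative values with a comparison beside them, 91 kept their side. The exceptions were the share in the reproducible list, at 2.50% in replicate 2's list against 2.46% of its other peaks, and at 3.00% against 2.78% when any overlap counted. The cause was not tested.

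The share of 3′ end peaks among nuclear peaks was 7.95% with 250 bp past the end, 15.6% with 1000 bp, 13.5% with promoter windows of 500 bp upstream and 250 bp downstream, 10.7% with every transcript's 5′ end, 10.4% with a noncoding distance of 1000 bp, 12.4% in the stronger 50% of peaks and 8.91% without coding exons, the last added after seeing the data. The convergent share was 65.8% (250 bp), 62.2% (1000 bp), 57.0% (promoter windows), 64.8% (noncoding distance) and 57.6% (no coding exons). The soft-masked median was 29.9% (250 bp, promoter windows or every transcript), 28.2% (1000 bp), 29.6% (stronger peaks), 27.7% (50 bases either side) and 32.9% (no coding exons). With 250 bp, 1000 bp, 50 bases either side and no coding exons, the GC median was 35.2%, 36.2%, 35.6% and 34.9%, and the AATAAA share 46.7%, 39.4%, 18.6% and 46.4%. Eligible genes with a peak made up 10.96% (250 bp), 8.33% (stronger peaks) and 12.2% (no coding exons). Density was 220.3 per Mb with 1000 bp and 150.2 in the stronger peaks. The stronger peaks had 61.0% in both replicates, a median signal of 48.3 and 13.4% on X, which held 16.4% without coding exons. The share in both replicates was 53.1% with any overlap and 25.9% with 80%, where rho was 0.25, against 0.41 for other peaks.

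With 1 replicate left out, the list of the other one gave these ranges: 9.82 to 10.4% for the share of 3′ end peaks, 1.71 to 2.50% in the reproducible list, a median signal of 18.5 to 25.7 on the lists' own scales, 62.3 to 63% convergent, 291 to 333 per Mb, 15.2 to 17.8% of eligible genes, GC of 35.2 to 35.5%, AATAAA at 41.1 to 42.2%, 29.2 to 29.6% soft-masked and 14.1 to 15.6% on X. No paired analysis was possible because the study has 1 group.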
